A study of Mus musculus with 4 samples.

Results

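The genes described here are 10 heat shock proteins of the cytosol and the mitochondrion. They are Hspa1a, Hspa1b, Hspa8, Hsph1, Dnajb1, Hspb1, Hsp90aa1, Hsp90ab1, Hspd1 and Hspe1, chosen by name, with earlier results of these data known. All 10 had an entry among the 27027 entries of the count table, and all 10 were among the 12185 entries with a mean of at least 10 reads per library, the set used below as background. Acute liver injury was induced in male C57BL/6J mice (strain C57BL/6 in the labels) by a single intraperitoneal dose of acetaminophen (APAP) of 300 mg/kg, an overdose that kills the hepatocytes around the central veins. All mice were 9 to 12 weeks old and were fasted for 10 h before the injection. Control mice received 0.9% NaCl, and livers were taken 24 h or 48 h after the injection. Liver RNA was pooled in equal shares from 6 mice in each control group and 7 mice in each APAP group, and each of the 4 pools was sequenced as 1 library by massive analysis of cDNA ends (MACE), which counts reads near the 3′ end of each mRNA. There was thus 1 library per group, no replicate check and no test across mice. Each interval given below is a 95% exact interval that covers counting error only, and it compares libraries, not conditions.

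Heat shock proteins are molecular chaperones that hold, refold or pass on other proteins. Members of the Hsp70 family bind exposed hydrophobic stretches in cycles of ATP hydrolysis that J-domain proteins start and exchange factors end. Hsp90 matures kinases and nuclear receptors, small heat shock proteins keep aggregating proteins in a refoldable state, and the Hsp60 chamber with its Hsp10 lid folds imported proteins in the mitochondrial matrix. Transcription of the inducible members is driven by heat shock factor 1 (HSF1), which binds heat shock elements, runs of the unit GAA in alternating orientation. The reactive metabolite of APAP binds to proteins in hepatocytes and depletes glutathione.

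The promoter windows of RefSeq (build GRCm38.p6, 250 bases before to 50 bases after an annotated transcript start) covered 7 of the 10 genes in 10 windows. Hspa8, Hsp90aa1 and Hsp90ab1 had no entry. Both pairings of the heat shock unit were searched, GAANNTTC and TTCNNGAA, each of which reads the same on both strands. The 150 bases before the start are shown for Hspa1a, Hspa1b and Hspb1, which were among the genes furthest above control at 24 h, and for Dnajb1, which was also far above control but whose windows held neither pairing. Capitals mark the fixed letters of GAANNTTC.
Hspa1a (chr17:34972157-34972306, minus strand): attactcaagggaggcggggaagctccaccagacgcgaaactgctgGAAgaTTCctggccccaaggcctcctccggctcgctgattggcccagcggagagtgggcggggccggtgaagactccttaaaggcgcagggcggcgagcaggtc
Hspa1b (chr17:34959239-34959388, minus strand): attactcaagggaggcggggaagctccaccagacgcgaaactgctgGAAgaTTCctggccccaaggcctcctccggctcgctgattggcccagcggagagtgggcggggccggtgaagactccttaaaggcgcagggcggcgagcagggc
Hspb1 (chr5:135887769-135887918, plus strand): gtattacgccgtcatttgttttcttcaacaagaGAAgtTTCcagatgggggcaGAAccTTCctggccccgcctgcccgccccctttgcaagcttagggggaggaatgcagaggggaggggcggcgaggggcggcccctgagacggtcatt
Dnajb1 (chr8:83608025-83608174, plus strand): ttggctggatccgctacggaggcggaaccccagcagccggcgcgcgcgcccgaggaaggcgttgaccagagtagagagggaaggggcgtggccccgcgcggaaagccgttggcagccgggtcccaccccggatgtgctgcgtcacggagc
GAANNTTC was found in the windows of 6 of the 7 genes and in 7.86% of all 32851 promoter windows, and TTCNNGAA in those of 3 genes and in 8.52% of all windows. One or the other was present in 6 of the 7 genes and in 15.1% of all windows. A run of 13 letters, GAANNTTC followed by NNGAA, or its reverse complement, joins both pairings and so overlaps them. It was found in the windows of 3 genes, Hsph1, Hspd1 and Hspe1, and in 0.603% of all windows. A gene was counted if any of its windows held a match, while the shares are of windows. The genes are also not separate cases, because Hspa1a and Hspa1b have nearly the same window and Hspd1 and Hspe1 share their matches. Matches of letters are a description and not binding sites, and a window without a match says nothing of the factor.

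In Hspa1a and Hspa1b the pairing began 104 bases before the start, and the pair's windows of 300 bases differed at 4 bases, of which 1 lay in the stretch shown. Hspb1 held 2 pairings, at 117 and 97 bases before the start. In Hspe1, GAANNTTC began 84 bases before the start. Hspd1 and Hspe1 lie head to head on chromosome 1, so the matches in the second Hspd1 window and in the Hspe1 window were the same bases. In Hsph1 the 13-letter run lay after the start. In the map of pairings by distance, only Hsph1 had matches after its start.

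**Figure D1:**
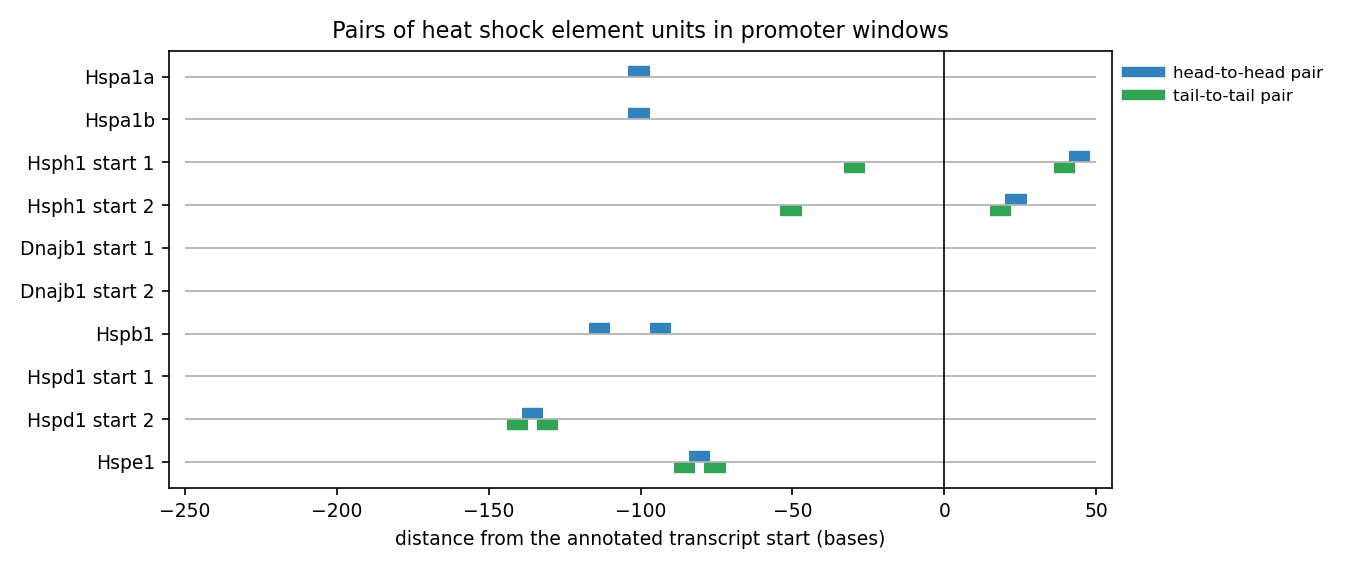
Position of each pairing of heat shock units relative to the annotated transcript start (x axis, in bases), with one line for each of the 10 promoter windows. Blue marks GAA facing its complement head to head, and green marks the tail-to-tail pairing. Both windows of Dnajb1 and one of Hspd1 are empty.

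Total counts were 4859661 reads (24 h) and 5191990 (48 h) for the controls, and 5698778 and 4938164 for APAP. Values below are reads, or normalized counts, which are reads divided by the DESeq2 size factor of the library (0.88, 0.933, 1.17 and 1.07 in the same order). A fold is the ratio of normalized counts of an APAP pool to the control pool of its own time, with a count under 3 reads set to 3, and 2-fold was the threshold. Hepatocyte markers made a summed level of 527268 to 585899 normalized counts per pool over 9 entries (1 of them at least 2-fold higher at 24 h), as a liver sample should hold, and no tested marker of any list below had a pool at 0 reads. In the bulk libraries, fewer cells of a type and less RNA per cell cannot be told apart. Of 7 tested pericentral hepatocyte markers, 5 (24 h) and 6 (48 h) were at least 2-fold lower. The summed level of the 8 with an entry was 18617 and 20620 in the controls against 7382 and 6391 in the APAP pools. Of 12 tested myeloid markers, 5 and 9 were at least 2-fold higher (summed level of the 13 with an entry, 925 and 947 against 1417 and 2122). Of 7 stellate cell markers, 0 and 4 were higher (485 and 531 against 566 and 948), and of 8 endothelial markers 1 and 1 (781 and 912 against 869 and 947). Of 2 tested cholangiocyte markers, 1 was higher at each time, Sox9 at 24 h and Spp1 at 48 h. Krt19, Krt7 and Epcam were under the mean of 10 reads and were not tested. The summed level of all 5 was 143 and 181 against 398 and 307. Of 8 periportal markers, 1 was higher and 2 were lower at 24 h, and 1 was higher and 1 lower at 48 h (28311 and 35650 against 19755 and 28872). Over all entries of the background, 6.02% were at least 2-fold higher and 5.59% lower at 24 h, and 5.97% and 5.57% at 48 h. In marker lists this short, a count of 1 cannot be told apart from these shares. The part of these cell types in the values below was not tested.

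The APAP pool of 24 h held more mRNA of the inducible heat shock proteins than either control pool, and that of 48 h did not reach 2-fold above its control for any. At 24 h, a fold of 2 or more was measured for 5 of the 10 genes, the Hsp70 genes Hspa1a and Hspa1b, their partners Dnajb1 and Hsph1, and the small heat shock protein Hspb1. Over all 12185 entries, 6.02% were at least 2-fold higher. Against the control pool of 48 h, 4 of the 10 genes and 6.22% of all entries were, since Hsph1 was no longer above 2-fold. None of the 10 was at least 2-fold lower, against 5.59% of all entries. At 48 h, 0 of 10 were at least 2-fold higher and 0 were lower, against 5.97% and 5.57% of all entries. The median log2 fold of the 10 genes was 0.90 at 24 h and -0.53 at 48 h, while that of all entries was 0.01 and -0.01.

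Of the Hsp70 proteins, Hspa1a and Hspa1b are the stress-inducible forms, encoded by neighbouring genes with a single exon each. Hspa1a (ENSMUSG00000091971, GRCm38, chr17:34969190-34972156, minus strand) had 4 reads in the control pool of 24 h, 11 in that of 48 h, 335 in the APAP pool of 24 h and 16 in that of 48 h. The APAP pool of 24 h thus stood above the other 3 pools. The fold was 62.7 at 24 h (95% interval 24.3 to 232) and 1.27 at 48 h (0.554 to 3.03). The 24 h fold ranked 2 of 12185. It rested on the 4 reads of its control pool and was 24.2 against the control pool of 48 h and 34.5 against both. Against the control pool of 24 h, the 48 h fold was 3.3, past the 2-fold threshold.

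Hspa1b (ENSMUSG00000090877, chr17:34956436-34959238, minus strand) had 34 and 32 reads in the controls of 24 h and 48 h, and 569 and 38 in the corresponding APAP pools. Its fold was 12.5 at 24 h (8.87 to 18.3), rank 17 of 12185, and 1.04 at 48 h (0.632 to 1.72). The pattern was that of Hspa1a, from controls with more reads. The longest transcripts of the pair were 99.1% identical over 2200 aligned bases, beyond which 770 bases at the 3′ end of Hspa1a and 603 at that of Hspa1b were not shared. Reads near the annotated 3′ end could therefore be told apart, and a read from a shorter transcript could not. Summed over both genes, the reads were 38 and 43 in the controls and 904 and 54 in the APAP pools, with folds of 17.8 (12.9 to 25.4) and 1.1 (0.722 to 1.68).

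Hspa8, the constitutive Hsp70 of the cytosol (chr9:40800984-40810087, plus strand), had 1887 and 2981 reads in the controls and 2964 and 2303 in the APAP pools. Its fold was 1.18 at 24 h (1.11 to 1.25) and 0.676 at 48 h (0.64 to 0.714). The control pools themselves lay 1.49-fold apart (1.41 to 1.58, 48 h over 24 h), so the direction turned with the choice of control. Against the control pool of the other time the folds were 0.79 and 1.01, and the 24 h fold was 0.94 against both control pools. The table joins this entry with Hspb8, a small heat shock protein, with Snord14c, which overlaps Hspa8, and with antisense reads. These cannot be told apart in it. The last 300 bases of Hspa8 also matched 7 other genes at 95% identity or more over at least 100 bases. Those with entries held 1124 and 1799 reads in the controls and 1423 and 1195 in the APAP pools, and with these added the folds were 1.09 and 0.64.

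Hsph1, an Hsp110 protein that exchanges the nucleotide of Hsp70 (ENSMUSG00000029657, chr5:149614287-149636376, minus strand), had 86 and 144 reads in the controls and 302 and 112 in the APAP pools. Its fold was 2.63 at 24 h (2.06 to 3.38) and 0.68 at 48 h (0.527 to 0.877). The control pool of 48 h was 1.58-fold above that of 24 h (1.2 to 2.09), and against the control pool of the other time the folds were 1.67 and 1.07. The gene thus lost its 2-fold call at 24 h with the other control, although the APAP pool of 24 h lay above both.

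Dnajb1, the J-domain protein that delivers clients to Hsp70 (ENSMUSG00000005483, chr8:83608193-83612653, plus strand), had 74 and 103 reads in the controls and 587 and 132 in the APAP pools. Its fold was 5.94 at 24 h (4.66 to 7.68), rank 62, and 1.12 at 48 h (0.86 to 1.46). As for Hspa1b, the level of the APAP pool at 48 h lay within the counting error of its control.

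Hspb1, the small heat shock protein also called Hsp25 (ENSMUSG00000004951, chr5:135887919-135889563, plus strand), had 205 and 148 reads in the controls and 929 and 119 in the APAP pools. Its fold was 3.4 at 24 h (2.92 to 3.97) and 0.703 at 48 h (0.548 to 0.901). The pseudogene Hsp25-ps1 shares its 3′ end and had 41, 11, 157 and 26 reads in the same order. With those reads added the folds were 3.31 and 0.797, and the interval at 48 h then reached past 1 (0.632 to 1.01). The control pools lay 0.681-fold apart (0.547 to 0.845, 48 h over 24 h). Against the control pool of the other time the folds were 4.99 and 0.479, so that the gene was then at least 2-fold lower at 48 h.

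The Hsp90 genes had smaller folds at 24 h. Hsp90aa1, the inducible form (ENSMUSG00000021270, chr12:110690605-110702728, minus strand), had 511 and 438 reads in the controls and 892 and 316 in the APAP pools, and folds of 1.31 (1.17 to 1.46) and 0.631 (0.544 to 0.731). Its last 300 bases also matched Gm12346 and Gm5844. Gm5844, which had an entry, held 84 and 68 reads in the controls and 152 and 55 in the APAP pools. With these added the folds were 1.31 and 0.641. Hsp90ab1, the constitutive form (ENSMUSG00000023944, chr17:45567775-45573271, minus strand), had 2746 and 2699 reads in the controls and 3361 and 2266 in the APAP pools, and folds of 0.917 (0.872 to 0.965) and 0.734 (0.694 to 0.777). Hsp90aa1 was thus above both controls at 24 h and below both at 48 h, while Hsp90ab1 was below both at each time. The 24 h fold of Hsp90ab1 crossed 1 with the scaling and was 1.04 when library totals took the place of size factors.

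In the mitochondrion, Hspd1 is the Hsp60 chamber and Hspe1 its Hsp10 lid, and the annotated genes overlap at their starts (ENSMUSG00000025980, chr1:55077835-55088243, minus strand, and ENSMUSG00000073676, chr1:55088132-55091307, plus strand). Hspd1 had 593 and 584 reads in the controls and 879 and 387 in the APAP pools, and folds of 1.11 (1 to 1.23) and 0.579 (0.508 to 0.66). Hspe1 had 696 and 748 reads in the controls and 1228 and 546 in the APAP pools, and folds of 1.32 (1.2 to 1.45) and 0.638 (0.571 to 0.714). The control pools lay close together for both genes, at 0.929 (0.827 to 1.04) and 1.01 (0.913 to 1.13), and the APAP pool of 48 h was the lowest of the 4. Pseudogenes with a matching 3′ end and an entry held 3 to 12 reads for Hspd1 and 66 to 184 for Hspe1, and with these added the folds were 1.1 and 0.58 for Hspd1 and 1.37 and 0.638 for Hspe1.

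The plot of normalized counts shows the same picture on one scale, in which the spread of the 2 control pools is the only measure of variation between pools of one treatment. Between the control pools, 1 of the 10 genes, Hspa1a, was at least 2-fold apart, against 5.33% of all entries, and its interval included 1 (2.59, 0.769 to 11.2).

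**Figure D2:**
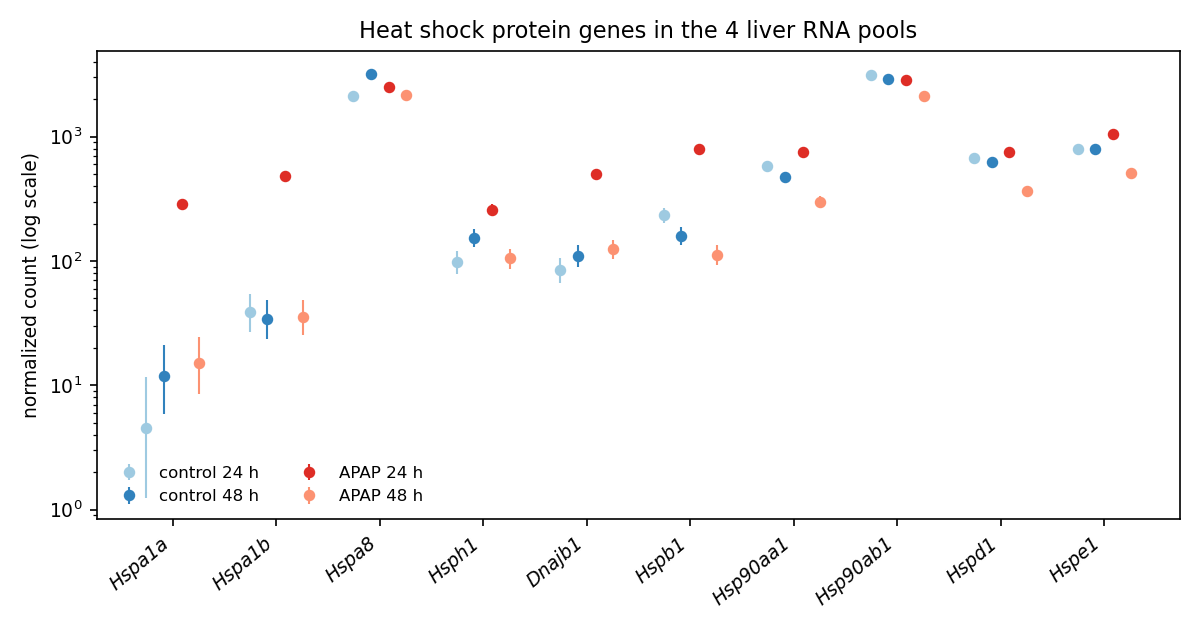
Normalized count (y axis, log scale) of each of the 10 genes in the 4 pools, with 95% exact Poisson intervals that are hidden by the points at high counts. The APAP pool of 24 h (dark red) is far above the other pools for Hspa1a, Hspa1b, Dnajb1 and Hspb1, and the APAP pool of 48 h (light red) is the lowest for Hspb1, both Hsp90 genes, Hspd1 and Hspe1.

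**Figure D3:**
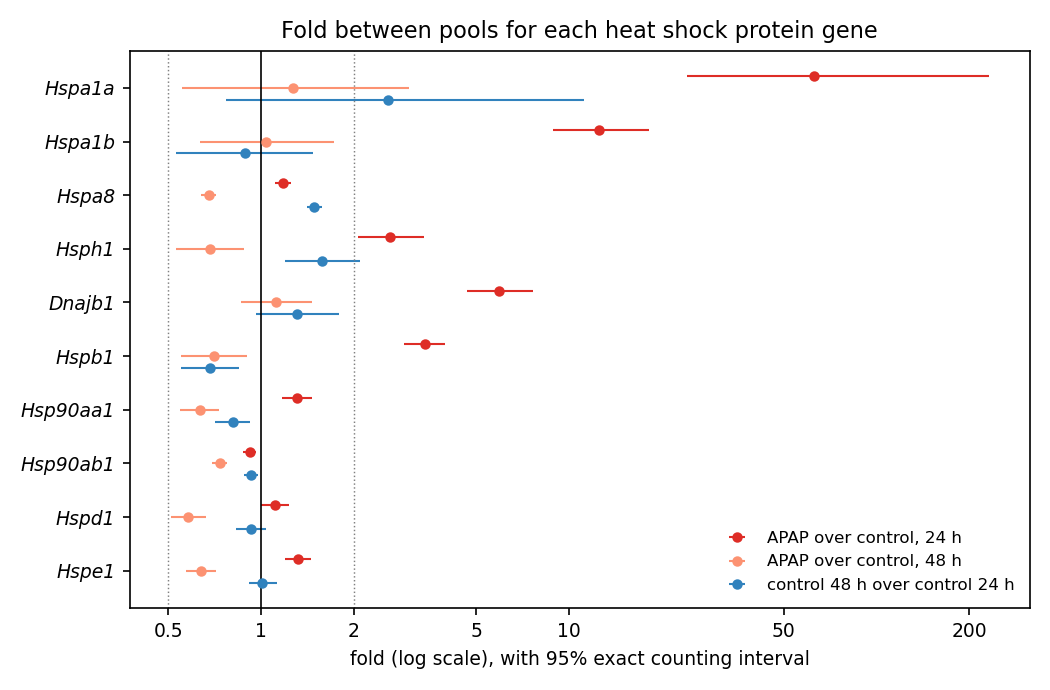
Fold (x axis, log scale) of APAP over control at 24 h and at 48 h and of the control pool of 48 h over that of 24 h, with 95% exact counting intervals. Dotted lines mark a 2-fold difference. At 24 h 5 genes lie to the right of the upper line, and at 48 h no gene lies outside either line.

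Against the control pool of its own time, every one of the 10 genes had a smaller fold at 48 h than at 24 h. With the control pools exchanged this did not hold for Hspa8 (0.79 at 24 h and 1.01 at 48 h), while the other genes still had a smaller fold at 48 h. The quotient of the folds (48 h over 24 h), with an exact conditional interval from the 4 counts, had an interval below 1 in 10 of 10 genes, and below 1 in 10.9% and above 1 in 8.81% of all entries. Such an interval narrows with more reads, so these counts depend on depth as well as on the size of the fall. By size, the falls ranked from 1 for Hspa1a to 1172 for Hspa8 and 3436 for Hsp90ab1, of 12185. The quotient was 0.0203 for Hspa1a (0.00439 to 0.0803), the largest fall of the 12185 entries, and 0.0828 for Hspa1b (0.0445 to 0.156), rank 5. For the Hsp70 partners it was 0.189 in Dnajb1 (0.13 to 0.273) and 0.259 in Hsph1 (0.181 to 0.37). It was 0.207 in Hspb1 (0.154 to 0.278). The genes with small folds at 24 h had quotients of 0.482 (Hsp90aa1), 0.483 (Hspe1), 0.522 (Hspd1), 0.574 (Hspa8) and 0.801 (Hsp90ab1). Of the 100 largest falls over all entries, which are 0.821% of them, 4 were among these genes.

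The quotient uses all 4 pools, so a difference between controls enters it. The APAP pools compared directly gave 48 h over 24 h ratios of 0.0526 for Hspa1a, 0.0735 for Hspa1b, 0.141 for Hspb1, 0.248 for Dnajb1 and 0.408 for Hsph1. The ratios were 0.39 for Hsp90aa1, 0.485 for Hspd1, 0.489 for Hspe1, 0.742 for Hsp90ab1 and 0.855 for Hspa8. All 10 intervals of these ratios lay below 1. The ratios hold no control reads by construction. They rest on the scaling between the APAP libraries, and were computed with the size factors only (1.17 at 24 h and 1.07 at 48 h). The scatter of folds at both times places the genes below the diagonal.

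**Figure D4:**
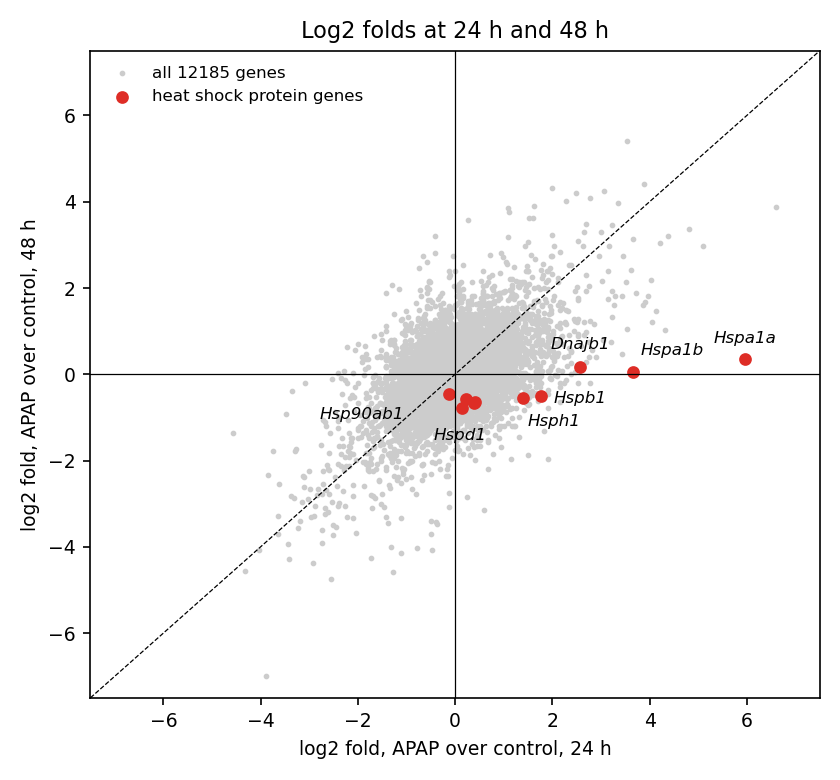
Log2 fold of APAP over control at 24 h (x axis) and at 48 h (y axis) for all 12185 entries (grey) and the 10 heat shock protein genes (red), with equal folds on the dashed line. All 10 genes lie below that line, and Hspa1a and Hspa1b lie furthest from it among them.

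Other chaperone genes were set beside these as 4 lists. The first held 31 tested genes, mainly cytosolic co-chaperones, with other HSF1 targets and Hsf1 itself. Of these, 2 were at least 2-fold higher and 0 lower at 24 h, against 6.02% and 5.59% of all entries. At 48 h, 1 was higher and 0 lower, against 5.97% and 5.57%. The median log2 folds were 0.09 at 24 h and -0.24 at 48 h. Hspb8 had no entry of its own, and Hspa2 was under the minimum mean. The genes above 2-fold were Fkbp5 and Dnajb4. Fkbp5, an Hsp90 co-chaperone that is also a glucocorticoid target, had 70 and 84 reads in the controls and 433 and 300 in the APAP pools, with folds of 4.63 (3.59 to 6.05) and 3.12 (2.44 to 4.03). Dnajb4, a J-domain protein close to Dnajb1, had 30 and 51 reads in the controls and 95 and 47 in the APAP pools, with folds of 2.37 (1.56 to 3.71) and 0.806. The control pools of Dnajb4 lay 1.6-fold apart (1 to 2.61), and against the other control its 24 h fold was 1.48, under the threshold. Fkbp5 was above 2-fold at both times, also against the other control (4.09 and 3.53).

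Within the same list, Bag3, an Hsp70 exchange factor that acts in selective autophagy, had 112 and 114 reads in the controls and 268 and 80 in the APAP pools, with folds of 1.79 (1.43 to 2.26) and 0.614. Its entry is joined with 2610306O10Rik. Dnaja1, a J-domain partner of Hspa8, had 251 and 418 reads in the controls and 382 and 254 in the APAP pools, with folds of 1.14 and 0.531 (0.453 to 0.623). Its control pools lay 1.57-fold apart (1.34 to 1.84), and against the other control the folds were 0.726 and 0.835. Hsf1, the factor itself, had 28 and 34 reads in the controls and 40 and 35 in the APAP pools. Its folds were 1.07 (0.644 to 1.8) and 0.9 (0.545 to 1.49). Both intervals included 1 and were wide at these few reads. Of the 31 genes, 7 had a quotient of folds with an interval below 1 and 2 above 1, against 10.9% and 8.81% of all entries.

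Of 15 mitochondrial chaperones and proteases, 0 were 2-fold apart in either direction at either time, and the median log2 folds were -0.17 and 0.00. Over all entries, 6.02% were higher and 5.59% lower at 24 h, and 5.97% and 5.57% at 48 h. A count of 0 in a list of 15, or of 8 below, is near these shares. Hspa9, the mitochondrial Hsp70 (joined with Gm26109), had 994 and 833 reads in the controls and 1420 and 963 in the APAP pools, with folds of 1.07 and 1.01. Its control pools lay 0.79-fold apart (0.72 to 0.867, 48 h over 24 h), and against the other control the folds were 1.35 and 0.799. At 48 h the fold of Hspa9 was higher than those of Hspd1 and Hspe1 with either control. Other genes of this list had 48 h folds down to 0.632, near that of Hspe1, while 7 of 15 were above 1. Of the 8 subunits of the cytosolic chaperonin TRiC, 0 were 2-fold apart at either time, and the medians were -0.02 and -0.20. In these lists 2 of 15 and 2 of 8 genes had an interval of the quotient below 1, and 1 of 15 and 0 of 8 above 1. Over all entries these shares were 10.9% and 8.81%.

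Of 15 chaperones of the endoplasmic reticulum, 2 were at least 2-fold higher and 0 lower at 24 h, against 6.02% and 5.59% of all entries. At 48 h, 0 were higher and 0 lower, against 5.97% and 5.57% of all entries. The medians were 0.52 at 24 h and 0.32 at 48 h. Creld2, which is secreted under stress of that compartment, had 84 and 103 reads in the controls and 275 and 172 in the APAP pools, with folds of 2.45 (1.91 to 3.17) and 1.46. Sdf2l1, a partner of the J-domain protein Dnajb11, had 269 and 172 reads in the controls and 782 and 375 in the APAP pools, with folds of 2.18 (1.89 to 2.51) and 1.91, or 3.61 and 1.15 against the other control. Hspa5, the Hsp70 of that compartment, had 1272 and 1282 reads in the controls and 3135 and 1899 in the APAP pools, with folds of 1.85 (1.73 to 1.97) and 1.3. In this list 8 of 15 genes had an interval of the quotient below 1 and 0 above, against 10.9% and 8.81% of all entries. The median log2 quotient was -0.31, against -1.50 for the 10 heat shock proteins and -0.03 for all entries. The summed level of this list was 12600 and 9047 normalized counts in the controls and 19128 and 11775 in the APAP pools. For the 10 heat shock proteins it was 7771 and 8457 in the controls and 10260 and 5846 in the APAP pools. The lower control pool of 48 h enters the quotients of this list, and the difference between lists was not tested.

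**Figure D5:**
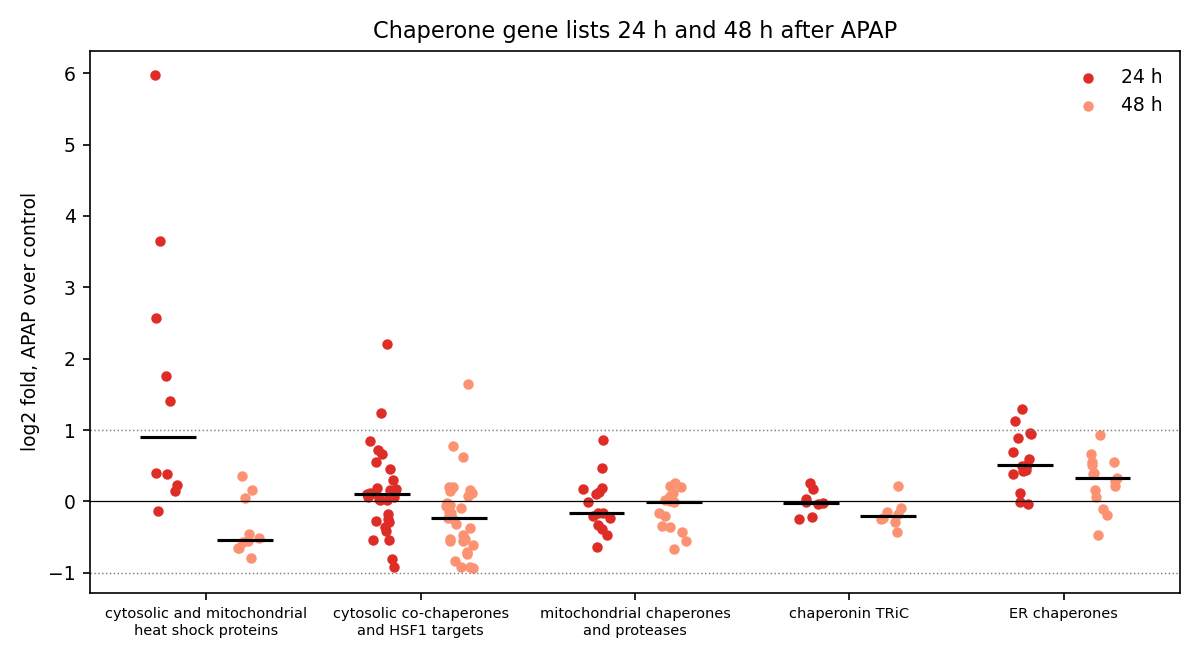
Log2 fold of APAP over control at 24 h (dark red) and 48 h (light red) for each gene of the heat shock protein set and of the 4 other chaperone lists, with black bars for medians and dotted lines at a 2-fold difference. Points are spread sideways at random for legibility. At 24 h the heat shock proteins reach 5.97, and at 48 h most of them lie below 0.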

How the data were processed

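Pooled liver RNA from 4 groups was profiled by MACE, 1 library per group. The authors removed duplicates by molecular identifier, trimmed low-quality bases, clipped poly(A) tails, mapped the reads to mm10 and counted them per gene with HTSeq; the aligner is not given in the sources used here. The deposited values used are raw counts. The normalized values and the columns of the authors' own comparisons (log2 fold changes, p-values and FDR) were not used. In the table, 2430 of 27027 entries join several identifiers.

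Each library was scaled by its median-of-ratios factor (DESeq2 1.42.0, R 4.3.3). TMM factors (edgeR 4.0.16) served as an alternative. Folds were computed in Python 3.11.15 (numpy 2.4.6, scipy 1.17.1, pandas 2.3.3), with a floor of 3 reads (2.56 to 3.41 normalized counts) and exact Clopper-Pearson intervals of 95%, or the exact conditional interval for the quotient of folds. No test with replicates was possible, and no count model was fitted. The background was the 12185 entries with a mean of at least 10 reads. Scripts were first tested on simulated data. Genes were placed by GENCODE release M21 (GRCm38), the last 300 bases of transcripts were compared by blastn 2.17.0, and plots were drawn with matplotlib 3.10.9.

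Named genes were the 10 heat shock proteins, the genes at least 2-fold apart in each other chaperone list (at most 4 per list), and Hsf1, Bag3, Dnaja1, Hspa9 and Hspa5. Members and lists were chosen with earlier results of these data known. Other scalings, thresholds and control pools were tried, as were sums over Hspa1a and Hspa1b.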

Additional observations from a re-analysis of the deposited data

Results flagged for a closer look

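Results are listed here because the fold of APAP over control differed between 24 h and 48 h by the exact interval of the 4 counts, which compares libraries. Among the 10 heat shock proteins all 10 met this, with quotients (48 h over 24 h) of 0.0203 for Hspa1a, 0.0828 for Hspa1b, 0.189 for Dnajb1, 0.207 for Hspb1, 0.259 for Hsph1, 0.482 for Hsp90aa1, 0.483 for Hspe1, 0.522 for Hspd1, 0.574 for Hspa8 and 0.801 for Hsp90ab1. Of the 9 named genes of the other lists 6 met it, with 0.34 for Dnajb4, 0.342 for Bag3, 0.466 for Dnaja1, 0.595 for Creld2, 0.674 for Fkbp5 and 0.702 for Hspa5. Over all entries, 10.9% had an interval below 1, a share that depends on read depth. Some of the 9 named genes were chosen for their folds in these data, so their count cannot be read against this share. With the control pools exchanged, the fold was larger at 48 h than at 24 h for Hspa8 (0.79 and 1.01) and Dnaja1 (0.726 and 0.835). Groups of 1 library could not be examined for outlying samples.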

How the results depend on the processing

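No paired analysis was possible because each group is 1 library, and for the same reason no replicate could be left out. Pooling hides the spread between mice, which the intervals do not cover, and at 4 to 38 reads (Hspa1a and Hspa1b outside the APAP pool of 24 h) depth limits the fold at 48 h. With the control pool of the other time point, the count of genes 2-fold higher at 24 h was 4 (without Hsph1), and at 48 h 1 gene, Hspa1a, was at least 2-fold higher (6.17% of all entries) and 1, Hspb1, at least 2-fold lower (4.84%). At a 1.5-fold threshold 3 genes were lower at 48 h (14.3% of all entries) and 2 were apart between the control pools (17.4%). At a 5-fold threshold 3 genes were higher at 24 h (0.698%), 0 were apart between the control pools (0.164%) and 3 had a smaller fold at 48 h (0.443%). No gene was apart between the control pools (0) when the interval had to lie past 1 (3.24% of all entries), or when Hspa1a and Hspa1b were summed (0). The median log2 fold was -0.27 at 48 h with library totals, 0.40 at 24 h with Hspa1a and Hspa1b summed and 1.40 at 24 h without the joined entry of Hspa8. The last of these, the addition of matching pseudogenes and the direct ratio of the APAP pools were chosen after seeing the data. Library totals shifted the median of all entries to 0.20 and 0.25 (log2) at 24 h and 48 h. Of 136 single folds recomputed, 7 lay on the other side of 1, in Hspa8, Hsph1, Hspa1b and Hsp90ab1. None of these was a fold of at least 2. The cause was not tested.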
